A study of Homo sapiens with 20 samples.

Results

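The comparison described here sets a higher against a lower dose of p53 at an early time. It uses 8 of 20 arrays, chosen by their labels: 4 arrays of cells given 5 ng of doxycycline for 12 h and 4 arrays of cells given 3 ng for 12 h. The cells are B5/589, an immortalized line of human mammary epithelial cells, and every group, the uninduced one included, carries a p53 transgene that doxycycline switches on. The other 12 arrays are 4 each of 0 ng, 3 ng and 5 ng, all collected at 24 h, and there is no uninduced group at 12 h. The doses are labelled in ng alone, no clone or promoter of the transgene is named, and nothing tells whether the 4 arrays of a group were separate cultures, so the p-values measure only how far these samples spread, and that spread may be technical. Genes were read from transcript clusters (the probe sets of 1 transcription unit) that carry exactly 1 gene symbol, with the brightest cluster for each gene, which gave 18417 genes.

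The p53 protein is a transcription factor that cells stabilise after DNA damage and other stresses. It binds a repeated decamer near its target genes and raises their transcription. Some targets halt the cell cycle, some promote apoptosis, some repair damage or adjust metabolism, and a few, such as MDM2, restrain p53 itself. Genes of DNA replication and mitosis usually fall when p53 is active, largely through p21, the product of CDKN1A, which keeps the RB family of proteins bound to E2F factors. In this design doxycycline switches on the p53 transgene, so a difference between 5 ng and 3 ng follows the dose of doxycycline. Every group carries the transgene, so an effect of the drug itself cannot be told apart from one of p53. The amount of p53 protein in the 2 groups was not measured on the arrays.

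The arrays differed in brightness. As deposited, on the log2 scale, the array medians were 4.92, 5.54, 4.77 and 5.38 in the 3 ng group and 4.70, 4.72, 5.15 and 5.27 in the 5 ng group, and over all genes the median difference at 12 h, 5 ng minus 3 ng, was -0.12. Quantile normalization, which gives every array the same distribution of values, brought that median to 0.0004 and lowered the median standard error (SE) of a gene's difference from 0.19 to 0.12. Results are therefore given on both scales. On either scale, arrays of the same group correlated across genes at 0.99, as did arrays of different groups. Most epithelial keratins read far above these medians: at 3 ng, mean deposited signals were 12.4 for KRT8 and 12.4 for KRT18 of luminal cells and 11.9 for KRT5 and 11.3 for KRT14 of basal cells. The luminal genes KRT19, at 5.59, and MUC1, at 5.52, read near the array medians. The means of 5 leukocyte markers ran from -0.34 for PTPRC to 5.84 for CSF1R and 5.95 for CD14, and those of 6 fibroblast markers from -0.95 for LUM to 5.31 for COL3A1 and 6.39 for COL1A1, so some of these markers also read near or above the array medians.

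Few genes separated clearly on the deposited values. At 12 h, 4 genes were higher at 5 ng and 0 were lower (limma with Benjamini-Hochberg, adjusted p under 0.05), which is 0.0217% of the genes tested. At an unadjusted p under 0.05, limma gave 269 higher (1.46%) and 813 lower (4.41%). All 5 ng arrays lay above all 3 ng arrays for 146 genes (0.793%) and below them for 74 (0.402%). After quantile normalization 428 genes were higher (2.32%) and 78 were lower (0.424%). All 506 (2.75%) had the same sign on the deposited values, and 276 of them had an unadjusted p under 0.05 there. Both scales come from the same arrays, so the shared sign is not independent evidence. The median size of a called difference was 0.43 on the log2 scale after quantile normalization, and the smallest was 0.20. With only the 8 compared arrays normalized together and fitted, 115 genes were higher and 3 lower. Without 1 array the total of 506 became 245 (3 ng replicate 2), 239 (5 ng replicate 1), 261 (5 ng replicate 3) or 301 (5 ng replicate 4), and 197 of the 506 genes kept their call whichever of the 8 arrays was left out.

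The 4 genes called on both scales were PALMD, LCE1F, ARRB1 and FRMD8. PALMD encodes palmdelphin, a cytosolic relative of paralemmin. Its deposited signals were 5.96, 6.43, 6.04 and 6.58 at 3 ng and 7.36, 7.45, 7.68 and 7.90 at 5 ng, so that every 5 ng array lay above every 3 ng array. The difference was 2.54-fold (adjusted p = 0.0365, limma) and 2.78-fold after quantile normalization (adjusted p = 0.000933, limma).

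LCE1F encodes a protein of the cornified envelope, the tough outer shell of keratinized skin cells. It read 7.75, 7.73, 7.69 and 8.09 at 3 ng and 8.91, 8.73, 8.71 and 8.97 at 5 ng, again without overlap. That is 2.02-fold (adjusted p = 0.0139, limma), and 2.09-fold after quantile normalization (adjusted p = 0.000608, limma). The LCE1 genes are near-identical neighbours, so signal may be shared among them.

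ARRB1 encodes beta-arrestin 1, which binds activated G protein-coupled receptors and ends their signalling. Its signals were 6.73, 7.04, 6.52 and 7.14 at 3 ng and 7.61, 7.66, 7.88 and 7.89 at 5 ng. The groups did not overlap, and the difference was 0.90 ± 0.15 on the log2 scale (SE, n = 4 arrays a group), or 1.87-fold (adjusted p = 0.0365, limma). FRMD8, a partner of the iRhom proteins that control release of growth factor ligands and TNF from the cell surface, read 9.20, 9.47, 9.43 and 9.50 at 3 ng and 10.08, 10.27, 10.26 and 10.19 at 5 ng. It was 0.80 ± 0.14 higher, or 1.74-fold (adjusted p = 0.0365, limma), and its groups did not overlap either.

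These 4 calls depended on single arrays on the deposited scale. Leaving out each of the 8 arrays in turn, LCE1F passed 4 times, ARRB1 2 times, and PALMD and FRMD8 1 time each, with adjusted p (limma) up to 0.087 for LCE1F and 0.242 for the other 3. The differences themselves moved little, from 1.24 to 1.45 for PALMD and from 0.73 to 0.84 for FRMD8. After quantile normalization all 4 passed in all 8 cases, with a highest adjusted p of 0.00592 (limma).

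**Figure D1:**
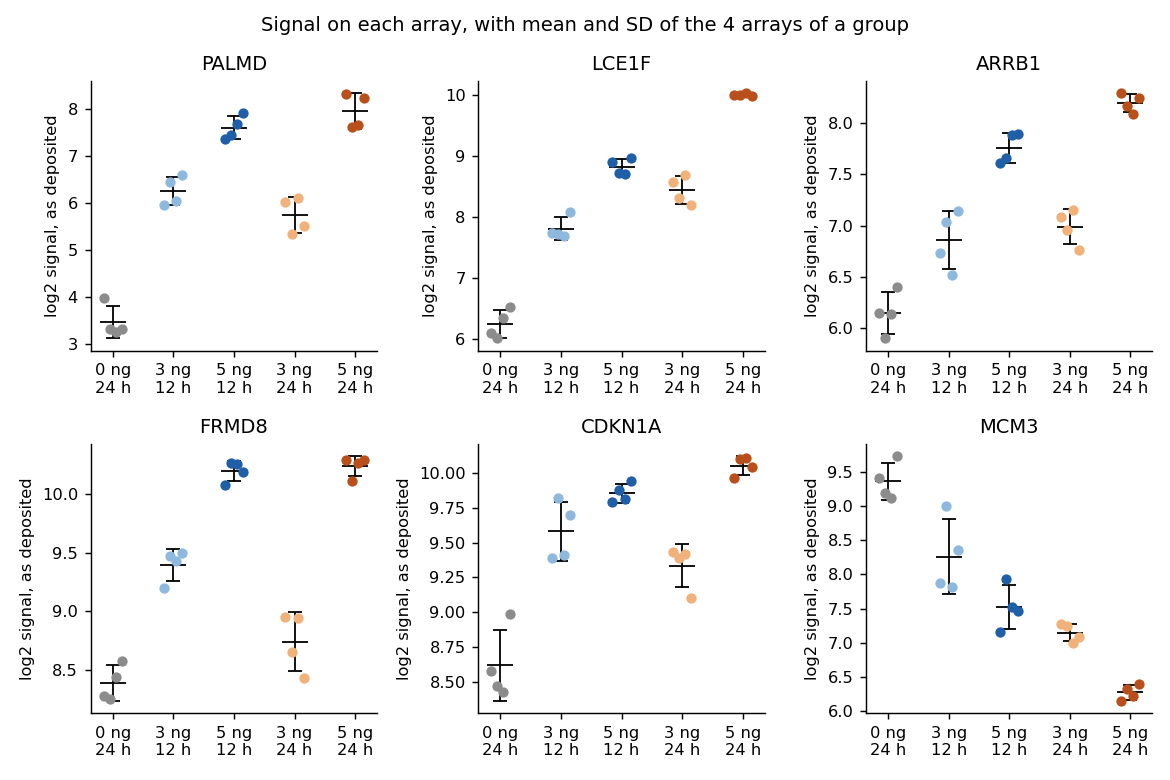
Deposited log2 signal (vertical axis) of PALMD, LCE1F, ARRB1, FRMD8, CDKN1A and MCM3 on each of the 20 arrays, by group (horizontal axis); points are arrays, and the long tick and bars are the mean and SD of 4 arrays. In the first 4 panels each 5 ng array at 12 h lies above each 3 ng array at 12 h, and in the MCM3 panel the order of the means is the opposite.

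All 4 genes were graded by dose at 24 h as well. The 24 h arrays are not part of the 12 h difference but share its estimate of spread. PALMD was 4.63-fold higher at 5 ng than at 3 ng, LCE1F 2.94-fold, FRMD8 2.82-fold and ARRB1 2.31-fold on the deposited values, with adjusted p (limma) between 5.51e-06 and 0.000169. In uninduced cells at 24 h their mean deposited signals were 3.46 for PALMD, 6.25 for LCE1F, 6.15 for ARRB1 and 8.39 for FRMD8, each below its own 3 ng mean at 12 h, which was 6.25, 7.82, 6.86 and 9.40. From 12 h to 24 h the 3 ng means went to 5.74, 8.45, 6.99 and 8.74. So for PALMD and FRMD8 the deposited 3 ng level at 24 h was the lower of the 2 while the 5 ng level was not. The average of the array medians went from 5.15 to 4.85 at 3 ng and from 4.96 to 4.80 at 5 ng. Whether array brightness had a part in these shifts was not tested.

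Other genes with the lowest p after quantile normalization had the same form. VSNL1, a neuronal calcium sensor of the visinin family, read 7.37, 7.43, 7.32 and 7.57 at 3 ng and 8.19, 8.11, 8.26 and 8.25 at 5 ng, a difference of 0.78 ± 0.07 (adjusted p = 1.87e-05, limma). TM7SF2, a sterol reductase of cholesterol synthesis, differed by 0.85 ± 0.08, and FAM13C by 0.93 ± 0.10. DNAJC18, a co-chaperone, read between 8.43 and 8.59 at 3 ng and between 9.10 and 9.23 at 5 ng, and SIAE, a sialic acid esterase, between 6.20 and 6.37 and between 6.82 and 7.03. RNF144B, an E3 ubiquitin ligase that p53 is known to induce, differed by 0.69 ± 0.07 (adjusted p = 7.88e-05, limma). None of these 6 passed on the deposited values. Genes singled out after their values were seen, for their size, were GNA14, a G protein alpha subunit, at 1.36 (3.62, 3.68, 3.63 and 4.47 at 3 ng, 5.33, 5.07, 5.24 and 5.20 at 5 ng), EDN2, endothelin 2, at 1.20, the hyaluronan-binding protein gene CEMIP at 1.10, and the hydroxycarboxylic acid receptor genes HCAR3 at 0.92 and HCAR2 at 0.86, which are near-identical neighbours. The 3 ng values of GNA14 are low beside the deposited array medians at 12 h, 4.70 to 5.54. With only the 8 compared arrays CEMIP and HCAR2 did not pass, while GNA14, EDN2 and HCAR3 did. EDN2 kept its call in 5 of 8 fits with 1 array left out.

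Known p53 targets were read from 5 lists with 111 members tested. After quantile normalization 24 rose and 0 fell, which is 21.6% against 2.32% higher among all genes, and the median difference was 0.18 against 0.0004. On the deposited values 0 of the 111 passed in limma, and 19 had an unadjusted p under 0.05, where 5.88% of all genes did. The lists were drawn up with earlier results of these data known, so their direction is not independent evidence.

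Among targets that arrest the cell cycle, 3 of 15 were higher and 0 lower. SFN, the epithelial 14-3-3 protein that holds mitotic kinases in the cytoplasm, rose by 0.37 ± 0.07 (adjusted p = 0.0111, limma). Its quantile-normalized signals were 11.61, 11.30, 11.61 and 11.51 at 3 ng and 11.98, 11.77, 11.94 and 11.81 at 5 ng, with no overlap. PRDM1, a transcriptional repressor, rose by 0.33. CDKN1A, which encodes the cyclin-dependent kinase inhibitor p21, read 9.62, 9.46, 9.65 and 9.52 at 3 ng and 9.97, 9.75, 9.79 and 9.89 at 5 ng. That is 0.29 ± 0.06, or 1.22-fold (adjusted p = 0.0224, limma). GADD45A missed the threshold at 0.21 ± 0.06 (adjusted p = 0.0626, limma), as did the stress kinase gene PLK3 at 0.25 ± 0.11. The 3 arrest calls became 0 without 5 ng replicate 1 and also 0 with only the 8 compared arrays, and were 1 without 3 ng replicate 2 or 3 ng replicate 4.

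Apoptosis targets gave 6 of 25 higher and 0 lower. IGFBP3, a secreted binder of insulin-like growth factors, rose by 0.76 ± 0.18 and CASP6, an executioner caspase, by 0.64 ± 0.09. The CASP6 arrays read 7.68, 7.74, 7.62 and 7.80 at 3 ng and 8.15, 8.37, 8.36 and 8.51 at 5 ng, so the groups did not overlap. CASP1, the inflammatory caspase, rose by 0.53. TP53INP1, a stress protein that assists p53 and autophagy, rose by 0.51 ± 0.10, and the quinone oxidoreductase gene TP53I3 by 0.50 ± 0.08.

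APAF1, the scaffold of the apoptosome that activates caspase 9, read 9.12, 9.03, 9.09 and 9.12 at 3 ng and 9.62, 9.55, 9.65 and 9.56 at 5 ng after quantile normalization, without overlap. Its difference was 0.50 ± 0.07, or 1.42-fold (adjusted p = 0.00115, limma). Several well-known targets of the same kind did not pass: FAS at 0.18, BAX at 0.16, PMAIP1, which encodes NOXA, at 0.32, the death receptor gene TNFRSF10B at 0.16 and PIDD1 at 0.40. BBC3, which encodes PUMA, was at 0.06 ± 0.11 after quantile normalization and at -0.08 as deposited, so its sign depended on the scaling. With only the 8 compared arrays, 2 of the 25 passed.

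In the remaining target lists the counts were 1 of 14 regulators that feed back on p53, 5 of 22 repair and metabolism genes and 9 of 35 others, all higher, where 2.32% of all genes were. Leaving out 1 array took the first count to 0 (5 ng replicate 1 or 3), the second to as few as 3 (3 ng replicate 2, 5 ng replicate 3 or 4) and the third to as few as 5 (3 ng replicate 2, 5 ng replicate 1 or 3), and with only the 8 compared arrays they were 1, 1 and 2. The feedback gene was TP73, a p53 relative, which rose by 0.55 ± 0.12 (adjusted p = 0.0214, limma). MDM2, the ubiquitin ligase that degrades p53, differed by 0.08 ± 0.05 (adjusted p = 0.571, limma), with arrays at 12.45, 12.46, 12.39 and 12.51 at 3 ng and 12.54, 12.49, 12.50 and 12.58 at 5 ng. These groups overlapped. Its mean was 11.92 in uninduced cells at 24 h.

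Among repair and metabolism genes, TP53I11 rose by 0.65, SESN1, a sestrin that restrains mTORC1, by 0.34, POLH, the polymerase that copies past UV damage, by 0.32 ± 0.06, TIGAR, a fructose bisphosphatase, by 0.31 ± 0.05 and DRAM1, a lysosomal membrane protein of autophagy, by 0.30. RRM2B at 0.16 did not pass. Of the others CLCA2, an adhesion-related membrane protein of stratified epithelium, had the largest difference, 0.80 ± 0.12, or 1.74-fold, with arrays at 8.93, 8.44, 8.69 and 8.93 at 3 ng and 9.67, 9.31, 9.56 and 9.62 at 5 ng, again apart. ABCA12, the lipid transporter of the skin barrier, rose by 0.69 and GRHL3, a transcription factor of epidermal differentiation, by 0.50. ZMAT3 at 0.26 and GDF15 at 0.30 did not pass.

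**Figure D2:**
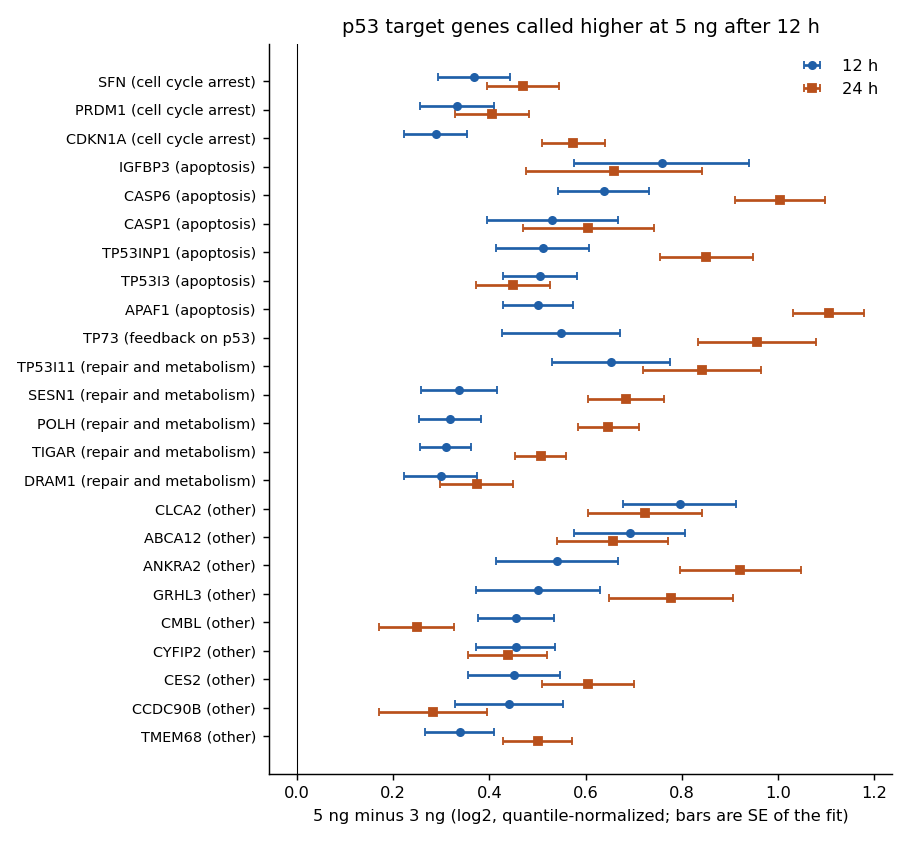
Differences between 5 ng and 3 ng (horizontal axis, log2 after quantile normalization) at 12 h (circles) and 24 h (squares) for the 24 p53 targets that passed at 12 h, each with the SE of the fit. The members were chosen by the 12 h values; at 24 h 22 of the 24 also passed.

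At 24 h 58 of the 111 targets were higher and 1 was lower, or 52.3% higher against 5.96% of all genes, and 22 of the 24 early ones were among the 58. The dose difference of CDKN1A was then 0.57, of CASP6 1.00 and of POLH 0.65, while TP53I3 at 0.45 and CLCA2 at 0.72 were not larger than at 12 h. The uninduced mean of TP53I3 was 7.70, against 10.68 at 3 ng and 11.19 at 5 ng at 12 h. That of CLCA2 was 6.13, against 8.74 and 9.54.

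The keratinocyte differentiation list gave 7 of 26 higher and 0 lower after quantile normalization, where 2.32% of all genes were higher. This list too was drawn up with earlier results of these data known, so its count is not independent evidence. The only one of the 7 to pass as deposited was PALMD. CRYAB, a small heat shock protein, read 7.26, 7.16, 7.57 and 8.01 at 3 ng and 8.98, 8.55, 9.03 and 9.25 at 5 ng. It was 1.45 ± 0.22 higher, or 2.74-fold (adjusted p = 0.00115, limma), with an uninduced mean of 3.67. AKR1B10, an aldo-keto reductase that reduces retinal, was 1.09 ± 0.16 higher, or 2.13-fold. Further cornified envelope genes, LCE1C at 1.07 ± 0.22 and LCE1B at 0.96 ± 0.14, FLG, which encodes filaggrin, at 0.57 and the crosslinking transglutaminase gene TGM1 at 0.37 completed the 7. Of these PALMD, CRYAB and AKR1B10 are not parts of the cornified envelope, although the count of 7 includes them. Other genes of the stratified epidermis, picked after their values were seen, were the protease inhibitor gene WFDC5 at 1.02 and PADI3, a peptidylarginine deiminase, at 0.79. The count was 5 to 7 whichever array was left out and 5 with only the 8 compared arrays. Basal markers gave 2 of 9 higher, MYLK, myosin light chain kinase, at 0.59 and KRT5, a basal keratin, at 0.25. The luminal list gave ELF3, an epithelial ETS factor, at 0.38 as its 1 call of 15. MYLK kept its call whichever array was left out, KRT5 only without 3 ng replicate 3 and ELF3 only without 3 ng replicate 4. With only the 8 compared arrays none of MYLK, KRT5 and ELF3 passed in limma.

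Replication genes moved the other way. Of 38 S phase genes 12 fell and 0 rose after quantile normalization, 37 had a difference below 0, and the median was -0.45, against 0.0004 for all genes, of which 0.424% were called lower. On the deposited values 0 passed in limma and 26 had an unadjusted p under 0.05, where 5.88% of all genes did. MCM3, a subunit of the replicative helicase, read 8.06, 8.61, 8.04 and 8.15 at 3 ng and 7.36, 7.87, 7.46 and 7.36 at 5 ng. It fell by 0.71 on the log2 scale (adjusted p = 0.00365, limma), and every 5 ng array was below every 3 ng array. The helicase genes MCM6 at -0.77, MCM2 at -0.58 and MCM5 at -0.55 fell as well. So did the cyclin genes CCNE2 at -0.86 and CCNE1 at -0.41, the checkpoint adaptor gene CLSPN at -0.83, the helicase partners CDC45 at -0.48 and GINS2 at -0.50, the flap endonuclease gene FEN1 at -0.34 and SLBP, the histone mRNA binding protein, at -0.33.

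Replication-dependent histones, which are transcribed in S phase, gave 8 of 35 lower and 0 higher, with a median of -0.42, while as deposited 0 passed in limma and 17 had an unadjusted p under 0.05. Among all genes 0.424% were called lower after quantile normalization, and 5.88% had an unadjusted p under 0.05 as deposited. H2BC14 read 10.28, 10.56, 10.35 and 10.10 at 3 ng and 9.44, 9.95, 9.29 and 9.02 at 5 ng, with no overlap, and fell by 0.90 (adjusted p = 0.0316, limma). H3C7 was at -0.87, H3C2 at -0.78, H2AC4 at -0.78, H2BC7 at -0.77, H1-3 at -0.72, H2BC9 at -0.71 and H2AC16 at -0.60. Histone genes of one class are near-identical, so their signals may be shared. Lower calls outside the lists included FBXO5, an inhibitor of the anaphase-promoting complex, at -0.75, FAM111A, a protease at replication forks, at -0.45 and EFNB2, an ephrin ligand, at -0.41. EFNB2 read 7.86, 7.73, 7.91 and 7.70 at 3 ng and 7.51, 7.28, 7.38 and 7.39 at 5 ng. MIR191, MIR503HG, PLPP2 and OR2D2 were likewise among the 10 falls of lowest p after quantile normalization. Of these 10, MIR503HG alone kept its call with only the 8 compared arrays. Genes picked after their values were seen, because they act in replication or chromatin assembly, were UNG, which removes uracil from DNA, at -0.67, and the histone chaperone genes ASF1B at -0.66 and CHAF1A at -0.43.

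With only the 8 compared arrays the S phase and histone counts were both 0, as they were on the deposited values and with arrays centred on their medians. Without 1 array the S phase count was 2 (3 ng replicate 2, 5 ng replicate 1 or 5 ng replicate 4), 3 (5 ng replicate 3), 5 (3 ng replicate 3), 8 (3 ng replicate 1 or 4) or 23 (5 ng replicate 2). The histone count was 1 without 3 ng replicate 2 or without 5 ng replicate 1, 3 or 4, 2 without 3 ng replicate 1, 5 without 3 ng replicate 3 and 12 without 5 ng replicate 2. The mean of the S phase list, after quantile normalization, was 7.91, 8.35, 8.06 and 7.88 on the 3 ng arrays and 7.45, 7.93, 7.56 and 7.42 on the 5 ng arrays. Replicate 2 was the highest of its group at each dose, and 5 ng replicate 2 alone overlapped the 3 ng arrays. Read by replicate number, the mean was lower at 5 ng for all 4 numbers. With the replicate number of the labels as a block, 22 S phase and 12 histone genes fell after quantile normalization, where 1.05% of all genes did.

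Promoter windows of the 78 genes that fell were searched for short motifs on both strands, from 250 bases before to 50 after each annotated start (RefSeq, GRCh38.p14). The sources used here do not give the build of the array annotation. Windows were found for 66 of the 78 genes and numbered 91. The letters TTTCGCGC, a core that E2F factors bind, lay in windows of 10 of these genes (15.2%), against 0.941% of all genes tested with a window, 0.63% of all genes in the table and 1 gene of 362 that rose. CCAAT, the letters bound by NF-Y, lay in 58.2% of the windows, against 34.6% for all genes tested. The other motifs searched were TTTGAA, the TATA box letters TATAAA and the half-site of p53, and no motif contains another. TTTGAA lay in 20.9% of the windows of genes that fell, against 12.3% for all genes tested. TATAAA lay in 18.7%, against 9.06%. A match is a description of the sequence and not of a bound site. The stretches below show the first motif where it precedes the start in replication and histone genes that fell, and in RBL1, which encodes the pocket protein p107 and fell by 0.43. Capitals mark the match, on whichever strand it lies, and each is written 5′ to 3′ along the gene.
MCM6, chr2:135876512-135876539, minus strand: gtcaggtttgGCGCGAAAtctccagctc
MCM6, chr2:135876574-135876601, minus strand: tttgcatttgGCGCGAAAtccctttccg
MCM3, chr6:52284729-52284756, minus strand: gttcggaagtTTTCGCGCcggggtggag
RBL1, chr20:37096006-37096033, minus strand: agctgcagatTTTCGCGCgctttggcgc
H2BC14, chr6:27814810-27814837, plus strand: cctctactggGCGCGAAAaggaagctgt
H3C7, chr6:26250693-26250720, minus strand: ataattcaggGCGCGAAActggaagatt
H2AC16, chr6:27865257-27865284, plus strand: acagctttatTTTCGCGCccagtattga
In the MCM6 promoter both matches lie upstream, starting 148 and 86 bases before the start, and the one in MCM3 starts 4 bases before it. Those of the histone genes start 202 (H2BC14), 75 (H3C7) and 50 (H2AC16) bases before.

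The p53 decamer half-site (named here by its consensus, which reads the same on both strands) lay in 8.59% of the 594 windows of genes that rose, 8.79% of the 91 windows of genes that fell and 6.28% of windows of all genes tested. Counted by gene that was 13.5%, 10.6% and 8.19%, and no test of these shares was made. Of the 4 genes called on both scales, 3 had a window, and 0 of the 3 windows held it. Some rising genes of the target and basal lists held it upstream of a start, and these stretches are shown because their values are given above, with the half-site in capitals.
ABCA12, chr2:215138689-215138718, minus strand: agagaatgtaGGACAAGTCCtactggcctt
SESN1, chr6:109009018-109009047, minus strand: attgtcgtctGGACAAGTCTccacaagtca
GRHL3, chr1:24322923-24322952, plus strand: gacctggttcAGGCTTGCCCaaggtctcac
KRT5, chr12:52520472-52520501, minus strand: gctgccccccAGGCATGCCCagcccactta
They start 82, 49, 107 and 97 bases before the annotated start. The response elements of p53 often lie outside so short a window, so a window without these letters says nothing of binding.

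Most mitotic genes lay below 0 at 12 h without passing the test. Of 39 G2 and M phase genes 0 fell and 0 rose at 12 h in limma after quantile normalization, although 37 had a difference below 0, 12 an unadjusted p under 0.05, and the median was -0.29. Among all genes 14.2% had an unadjusted p under 0.05 on that scale. With the replicate number of the labels as a block, 3 of the 39 fell after quantile normalization, where 1.05% of all genes did, and the list's mean was lower at 5 ng for all 4 numbers. CCNB1, the mitotic cyclin, read 10.59, 10.95, 10.72 and 10.62 at 3 ng and 10.34, 10.80, 10.50 and 10.40 at 5 ng. The groups overlapped, and the difference was -0.21 ± 0.12 (adjusted p = 0.49, limma). CDK1, its kinase, was at -0.17 ± 0.15 and AURKA, a spindle kinase, at -0.16 ± 0.12, and on the deposited scale both lay above 0 without 3 ng replicate 2, AURKA also without 5 ng replicate 1.

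At 24 h the same list gave 37 lower and 2 higher, where 4.42% of all genes were lower and 5.96% higher, with a median of -1.29, and the S phase list gave 32 lower with a median of -0.91, of which 12 were the genes called at 12 h. The mean of the G2 and M phase list was 8.56, 8.97, 8.65 and 8.56 at 3 ng and 8.24, 8.79, 8.40 and 8.25 at 5 ng after 12 h, and 7.04, 7.01, 6.87 and 6.82 against 5.54, 6.11, 5.72 and 5.54 after 24 h. In uninduced cells at 24 h it was between 8.91 and 9.07. The G2 and M phase windows held TTTGAA, the letters of the cell cycle homology region, in 60.5%, against 12.3% of the windows of all genes tested and 2.08% of the S phase windows.

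**Figure D3:**
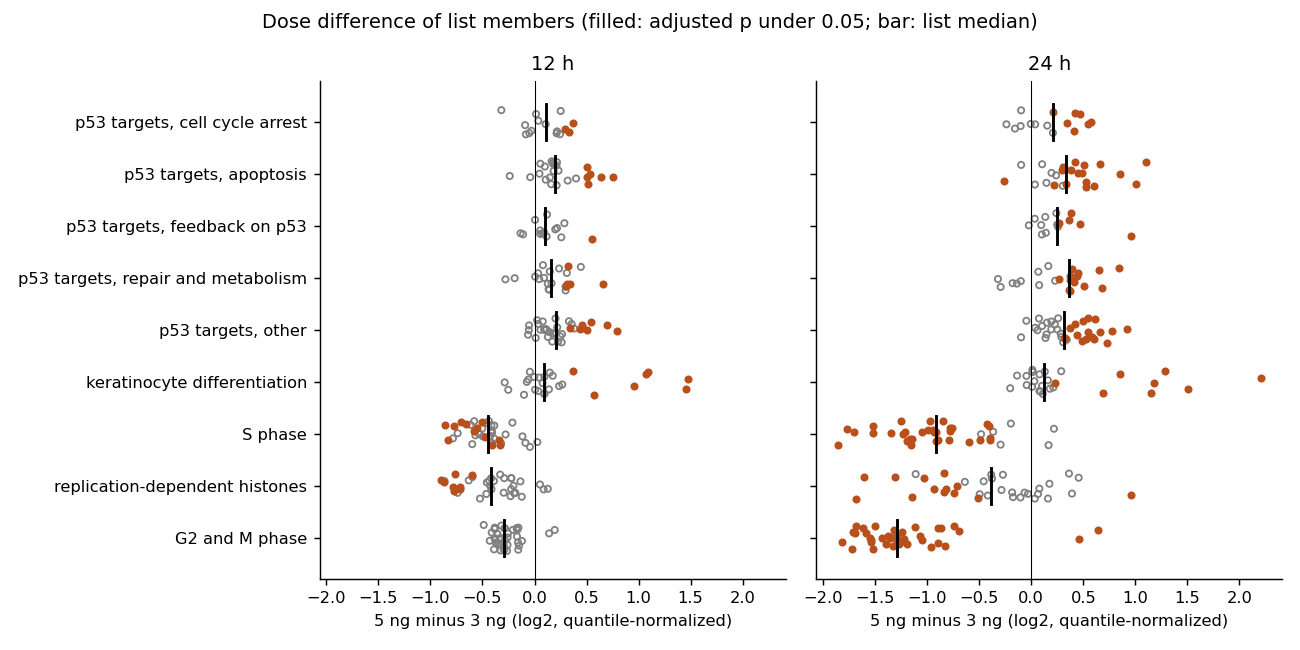
Dose differences (horizontal axis, log2 after quantile normalization) of every tested member of 9 lists at 12 h and at 24 h; filled points have an adjusted p under 0.05 and the vertical bar is the list's median. S phase and histone medians lie at -0.45 and -0.42 already at 12 h, whereas the G2 and M phase median goes from -0.29 to -1.29. None of these filled points at 12 h except PALMD is a call on the deposited values.

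**Figure D4:**
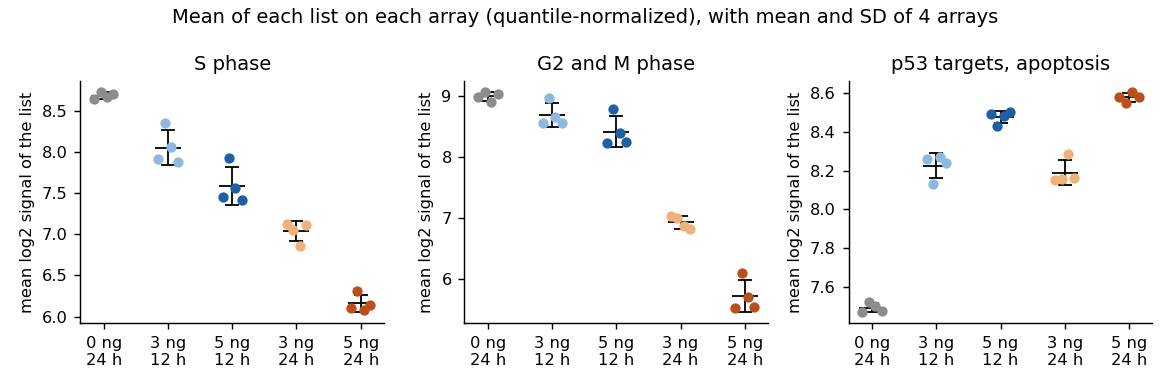
Mean log2 signal (vertical axis, after quantile normalization) of the S phase, G2 and M phase and p53 apoptosis lists on each array, by group, with the mean and SD of 4 arrays. S phase means are between 7.88 and 8.35 at 3 ng and between 7.42 and 7.93 at 5 ng after 12 h, and the apoptosis means of the same arrays are between 8.13 and 8.27 and between 8.43 and 8.50.

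The test of whether the dose difference itself changed between 12 h and 24 h gave 13 genes after quantile normalization (0.0706%) and 0 (0%) on the deposited values, where limma gave 391 (2.12%) at an unadjusted p under 0.05. Of the 13, 12 were lower at 24 h relative to 12 h, and 9 of these stand on the G2 and M phase list. CCNB1 went from -0.21 to -1.59, a change of -1.38 (adjusted p = 0.00304, limma), and DEPDC1, a mitotic regulator, from -0.34 to -1.87. APAF1 was the 1 gene with a larger rise, from 0.50 to 1.11 (adjusted p = 0.0388, limma). With only the 16 arrays of the 4 induced groups the count was 3, and it ran from 2 to 45 when single arrays were left out, being 26 without 3 ng 12 h replicate 2, 45 without 5 ng 24 h replicate 2 and at most 9 without any other array.

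The early calls were set beside the 24 h comparison, which uses other arrays but the same estimate of spread. At 24 h 1097 genes were higher (5.96%) and 814 lower (4.42%) after quantile normalization, and 329 (1.79%) and 139 (0.755%) as deposited. Of the 428 genes higher at 12 h, 383 were also called higher at 24 h, which is 89.5% of the early calls and 34.9% of the later ones. Of the 78 lower at 12 h, 59 were also called lower at 24 h, or 75.6% of the early and 7.25% of the later calls. In the opposite direction there were 0. The median difference went from 0.42 to 0.54 among the former and from -0.44 to -0.47 among the latter, and 324 and 45 of them respectively had the larger difference at 24 h. With each time normalized and fitted on its own 8 arrays, 104 of 118 early calls were called in the same direction at 24 h.

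**Figure D5:**
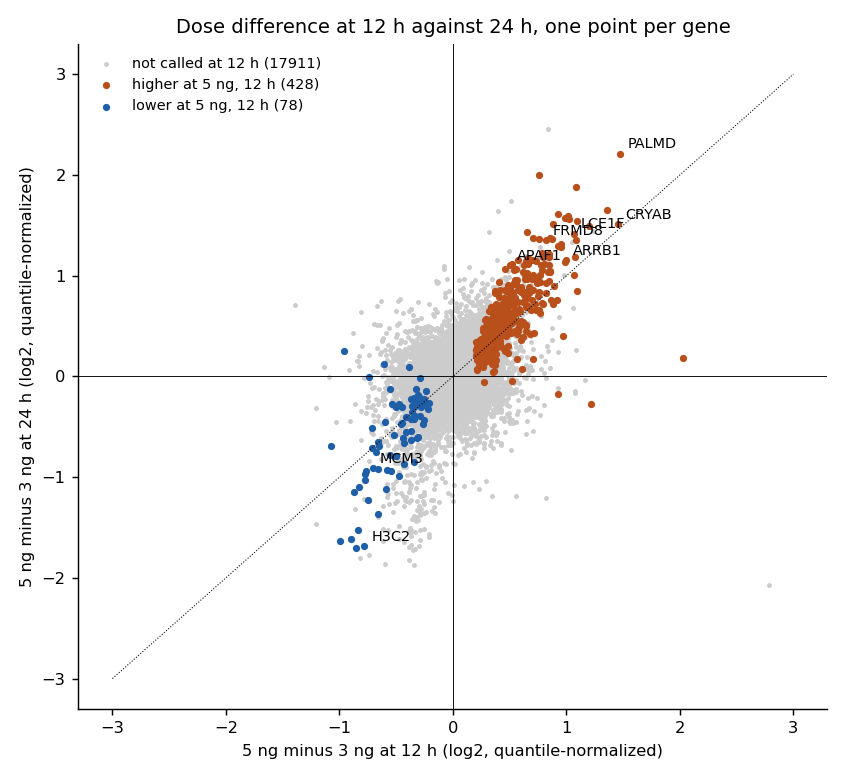
Each point is 1 of 18417 genes, with the difference between 5 ng and 3 ng at 12 h (horizontal axis) and at 24 h (vertical axis), log2 after quantile normalization; the dotted line marks equal differences. The 428 genes higher and 78 lower at 12 h were chosen by the horizontal value; 424 and 75 of them have the same sign on the vertical axis.

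The early calls were also read in 3 ng against 0 ng at 24 h. Neither group enters the 12 h difference, but both enter the shared estimate of spread and the quantile normalization behind the calls. There 417 of the 428 lay above 0 (97.4%, against 61.9% of all genes) and 72 of the 78 below 0 (92.3%, against 38% of all genes). The median was 0.65 for the former and -1.09 for the latter, against 0.08 for all genes. Across all 18417 genes the differences at 12 h and 24 h had a Pearson correlation of 0.50 after quantile normalization and 0.52 as deposited, a description only, since genes are not independent.

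Outside these groups few list members passed, where 2.32% of all genes were higher and 0.424% lower. Among caspases and their inhibitors the call was CFLAR, the FLIP inhibitor of caspase 8, at 0.46 ± 0.07, 1 of 13. Immediate early and MAPK feedback genes gave 2 higher, SPRY1, a brake on receptor tyrosine kinases, at 0.50 and the zinc finger factor gene EGR1 at 0.46, and 1 lower, the phosphatase gene DUSP4 at -0.29, of 26. The chemokine gene CCL3, at 0.88 ± 0.17, was the 1 call among 22 NF-kB targets and chemokines, and POLR1A, the largest subunit of RNA polymerase I, at 0.21 the 1 among 19 ribosome biogenesis genes. In the immune and endothelial list of 15, ITGAM, a leukocyte integrin, at 0.53 was higher and CSF1R, a macrophage growth factor receptor, at -0.37 lower. CFLAR and CCL3 kept their calls whichever array was left out, although with only the 8 compared arrays none of these 8 genes passed in limma. SPRY1 lost its call without 3 ng replicate 2 or 4 or 5 ng replicate 1 or 3, EGR1 without these or 3 ng replicate 1, and DUSP4 without 3 ng replicate 1 or 5 ng replicate 1, 3 or 4. ITGAM kept its call only without 3 ng replicate 1 or 5 ng replicate 2 or 4, POLR1A only without 3 ng replicate 1 and CSF1R only without 3 ng replicate 4. BCL2 family members outside the p53 lists (15 tested), stress response genes (18), interferon-stimulated genes (20), cholesterol synthesis genes (15) and mesenchymal markers (17) gave 0 calls in limma on either scale. These counts cover only the members of each list. TM7SF2, which rose, is not on the cholesterol list, and EIF2AK3, EIF2AK4 and ERO1B, which were called, are not on the stress response list. With the replicate block after quantile normalization the BCL2 and interferon lists gave 1 higher each and the mesenchymal list 1 lower. In that fit 3.48% of all genes were higher and 1.05% lower. The interferon list's mean was highest on replicate 1 and lowest on replicate 2 in each of the 5 groups. At an unadjusted p under 0.05 after quantile normalization they gave 4, 6, 0, 0 and 2, where all genes gave 14.2%. The summed deposited signal of 5 leukocyte markers was between 13.43 and 17.80 on the 3 ng arrays and between 12.39 and 15.68 on the 5 ng arrays, and that of 6 fibroblast markers between 18.78 and 22.54 and between 17.28 and 21.67. Whether other cells or the number of cells had a part in any difference was not tested, and in bulk RNA fewer cells of a kind and less RNA in each cannot be told apart.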

How the data were processed

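Biotin-labelled total RNA was read on Affymetrix arrays. The deposited values are on the log2 scale, 1 for each of 33297 transcript clusters and array. The submitters' processing notes name GCOS, GCRMA, Affymetrix Power Tools and limma, with no role or version. The scaling between arrays is not given in the sources used. No probe-level detection call was used.

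Of the clusters, 19460 had 1 gene symbol in the platform annotation, 1754 had several and 12083 were not listed. The brightest cluster stood for each of 769 genes with more than 1, leaving 18417 genes, with no filter on signal. A mean for each of 5 groups was fitted to all 20 arrays (15 residual degrees of freedom) with limma 3.58.1 in R 4.3.3 and eBayes, on the deposited values (main) and after quantile normalization. P-values were adjusted over all genes by Benjamini-Hochberg and called under 0.05. The fit was checked on simulated data.

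The comparison, the 21 gene lists (453 of 480 genes tested) and the rule for named genes were chosen with earlier results of these data known. The rule names a panel of 22 genes (20 tested; the others are not reported here), the largest changes called on both scales (filled to 10 a direction by lowest p), up to 4 called members of each list and the largest interactions; the remaining called list members and the genes so marked were named after their values were seen. Promoters were planned for the genes called on both scales, and the wider sets were added after the data were seen. Alternatives were other scalings, fewer groups in the fit, a replicate block, a filter on dim genes, other cluster choices, other variance options, array weights, and each array left out. The number of arrays limits the precision.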

Additional observations from a re-analysis of the deposited data

Results flagged for a closer look

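In 154 groups of 4 deposited values (77 named genes at 12 h), 8 had 1 array apart from the other 3 by a gap above Dixon's 95% critical value as a share of the group's range, where chance gives about 1 in 20. Of these, 3 were 5 ng replicate 1, the lowest of its group: SESN1 at 8.87 against 9.11 to 9.14 (gap 0.8889 of the range), RNF144B at 11.45 against 11.54 to 11.55 (0.9) and PRDM1 at 7.45 against 7.53 to 7.54 (0.8889). For 3 ng replicate 4, LCE1F was the highest at 8.09 against 7.69 to 7.75 (0.85) and LCE1C at 10.07 against 9.48 to 9.58 (0.8305). H3C7 was the highest in 3 ng replicate 2, at 8.63 against 7.81 to 7.94 (0.8415). EGR1 was the lowest in 5 ng replicate 4, at 8.90 against 9.08 to 9.10 (0.9), and LCE1C in 5 ng replicate 2, at 10.62 against 10.78 to 10.79 (0.9412). These are deposited values, on which the arrays differed in brightness. The median of 5 ng replicate 1, 4.70, was the lowest at 12 h. Those of 3 ng replicates 2 and 4, 5.54 and 5.38, were the highest. EGR1 went the other way, as 5 ng replicate 4 had its group's highest median, 5.27. After quantile normalization SESN1 read 9.05 on 5 ng replicate 1, between 9.03 on replicate 4 and 9.10 on replicate 3. Whether brightness had a part in these flags was not tested.

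Also, 6 named genes had dose differences that differed between 12 h and 24 h by the interaction test after quantile normalization (limma with Benjamini-Hochberg). They were APAF1 (0.6041, adjusted p = 0.0388), DEPDC1 (-1.5268, adjusted p = 0.00304), CCNB1 (-1.3824, adjusted p = 0.00304), SHCBP1 (-1.2676, adjusted p = 0.0388), CCNA2 (-1.2131, adjusted p = 0.0416) and AURKA (-1.1968, adjusted p = 0.0165). None passed on the deposited values.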

How the results depend on the processing

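At 12 h the 4 deposited calls became 506 after quantile normalization of all arrays, 118 with the compared arrays only, 206 with median centring, 0 with only the compared groups, 2 with the replicate block, 834 with that block after quantile normalization, 23 without the dimmest 30% of genes, 2 over all clusters, 32 with trend and robust options and 39 with array weights. Without 1 array they were 0 to 11. The 506 became 127 with only the compared groups, and 239 to 559 without 1 array, and the 442 shared with 24 h became 4 as deposited, 104, 191, 112 and 725 with compared arrays, centring, compared groups and block, and 224 to 494 without 1 array. At 24 h 468 deposited calls became 1911 (quantile), 1506 (compared arrays), 946 (centred), 2489 (quantile with block) and 1391 (weights), and 276 to 374 without 1 array; the 1911 became 1373 to 1749. The interaction gave 0 as deposited, 13 (quantile), 3 (compared arrays), 1 (centred), 77 (quantile with block), 1 (trend and robust) and 27 (weights), and 0 without any 1 array. After quantile normalization its 13 became 3 with compared groups, 33 without dim genes, 4 over all clusters, 36 with trend and robust options, 34 with weights and 2 to 45 without 1 array. The causes were not tested. Higher calls were 329 of 468 as deposited and 1097 of 1911 after quantile normalization at 24 h.

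Signs turned for 3 named genes: BBC3, -0.08 as deposited, was 0.056 after quantile normalization of all arrays (also with the block), 0.055 with the compared arrays, 0.11 centred and 0.010 with weights, and ran from -0.20 to 0.048 without 1 array (highest without 5 ng replicate 1). CDK1 ran from -0.35 to 0.022 (without 3 ng replicate 2). AURKA was 0.035 centred and 0.069 with weights, and ran from -0.28 to 0.058 (above 0 without 3 ng replicate 2 or 5 ng replicate 1). Over 77 named genes 1158 of 1385 deposited and 1003 of 1308 quantile-normalized values kept sign and side of the threshold. In a check of pairing, same-numbered arrays at 12 h gave correlations of 0.128, 0.124, 0.025 and 0.106 after quantile normalization. On the deposited values these were 0.14, -0.01, -0.11 and 0.20. They are not correlations of the signals themselves, which were 0.99 between 3 ng and 5 ng arrays. Not all were over 0.1 on either scale, so the numbers were not taken as pairs in the calls. After quantile normalization 3 of 4 correlated best with their own number, and 504 of the 506 calls stood with the block. Of 21 lists, that of interferon-stimulated genes had the same highest and lowest number in all 5 groups, and whether a number marks a shared set was not settled. With the block after quantile normalization the p53 target lists, in the order above, gave 5, 11, 2, 9 and 15 higher, where 3.48% of all genes were. S phase, histone and mitotic genes gave 22, 12 and 3 lower, where 1.05% of all genes were. Array weights were estimated gene by gene, a choice made after seeing the data.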
